A study of Mus musculus with 2 samples.

Results

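Interferon-induced CD8+ T cells are tumor-infiltrating cytotoxic T cells that carry transcripts of the antiviral interferon program. They were chosen here from the counts themselves, as barcodes with at least 200 genes and at most 10% mitochondrial UMIs (unique molecular identifiers, 1 for each captured transcript) that passed the following limits. The UMIs of the T cell receptor complex genes Cd3d, Cd3e and Cd3g had to sum to at least 2 and those of Cd8a and Cd8b1 to at least 1, with 0 of Cd4. Those of the macrophage genes C1qa, C1qb and C1qc had to sum to less than 10 and those of the division genes Mki67, Top2a and Birc5 to less than 2. Those of 4 interferon-stimulated genes, Ifit1, Ifit3, Rsad2 and Usp18, had to sum to at least 3. The limits were met by 82 of 10217 barcodes of the MWA library and 106 of 10190 barcodes of the MWA plus TIGIT library, or 188 of 20407 in all. The same limits with a sum under 3 gave 1325 and 1448 other non-cycling CD8+ T cells, which served as the comparison.

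Both libraries were made from CD45+ leukocytes, enriched with magnetic beads and sorted by FACS, of the left flank tumor of male C57BL/6 mice that were 6 to 8 weeks old when bought. MC38, a mouse colon cancer line, had been injected under the skin of both flanks, and only the right tumor received microwave ablation (MWA), a heating of the tumor through a probe, at a volume of about 300 mm3. The MWA group also received an isotype control antibody, and the MWA plus TIGIT group received an antibody that blocks TIGIT, an inhibitory receptor of T cells and NK cells, into the peritoneal cavity every 3 days from day 1. The labels give 3 injections and collection on day 8, and the methods give another number of injections. The number of mice behind each library is not given in the sources used here, and groups without ablation were not analysed here.

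Type I interferons are secreted by cells that sense foreign or misplaced nucleic acids, and almost every cell can respond to them through the receptor IFNAR. The kinases JAK1 and TYK2 then activate transcription factors, among them STAT2 and IRF9, which bind interferon-stimulated response elements in the promoters of target genes, while interferon-γ, the product of activated T cells and NK cells, signals through a receptor of its own and acts on gamma-activated sites. The 2 programs share many targets. Ifit1 and Ifit3 encode proteins that bind foreign RNA, Rsad2 encodes viperin, an enzyme that makes a chain-terminating nucleotide, and Usp18 encodes the protease that removes ISG15 from proteins and damps signaling from IFNAR.

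Promoters are shown of 3 genes that chose the cells, of Isg15 and Cmpk2, which were among the genes with the highest ratios, and of Xcl1, to show where the letters of the response element stand and where they do not. RefSeq promoters of GRCm38.p6, from 250 bases before the start of the gene to 50 bases after it, were printed 5′ to 3′ in the direction of the gene, with matches to GAAA, any 2 bases and GAAA, on either strand, in capitals. Xcl1 was lower in the interferon-induced cells. The windows were chr19:34640639-34640938 (plus strand) for Ifit1, chr19:34583279-34583578 (plus) for Ifit3, chr12:26456403-26456702 (minus) for Rsad2, chr4:156200769-156201068 (minus) for Isg15, chr12:26468965-26469264 (plus) for Cmpk2 and chr1:164935473-164935772 (minus) for Xcl1.
Ifit1: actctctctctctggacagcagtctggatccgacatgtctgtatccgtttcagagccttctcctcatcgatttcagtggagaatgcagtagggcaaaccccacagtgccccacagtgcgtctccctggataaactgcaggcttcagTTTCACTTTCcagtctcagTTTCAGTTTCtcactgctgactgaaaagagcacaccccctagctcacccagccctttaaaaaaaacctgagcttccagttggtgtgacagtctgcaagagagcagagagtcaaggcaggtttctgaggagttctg
Ifit3: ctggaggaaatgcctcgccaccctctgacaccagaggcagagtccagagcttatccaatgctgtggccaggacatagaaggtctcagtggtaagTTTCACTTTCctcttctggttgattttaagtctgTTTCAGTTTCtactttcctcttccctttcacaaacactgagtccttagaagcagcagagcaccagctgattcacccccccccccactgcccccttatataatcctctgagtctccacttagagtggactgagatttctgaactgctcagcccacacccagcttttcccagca
Rsad2: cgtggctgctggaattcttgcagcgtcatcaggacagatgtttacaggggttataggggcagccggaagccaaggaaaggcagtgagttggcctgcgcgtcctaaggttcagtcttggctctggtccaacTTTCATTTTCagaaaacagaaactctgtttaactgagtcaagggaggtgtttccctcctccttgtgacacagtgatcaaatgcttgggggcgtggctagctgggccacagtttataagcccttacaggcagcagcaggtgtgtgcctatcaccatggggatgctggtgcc
Isg15: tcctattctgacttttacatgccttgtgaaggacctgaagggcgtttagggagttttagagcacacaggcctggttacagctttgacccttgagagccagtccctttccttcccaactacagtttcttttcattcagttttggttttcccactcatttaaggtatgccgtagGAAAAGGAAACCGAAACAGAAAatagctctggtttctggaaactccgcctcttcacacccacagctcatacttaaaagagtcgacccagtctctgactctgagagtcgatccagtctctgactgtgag
Cmpk2: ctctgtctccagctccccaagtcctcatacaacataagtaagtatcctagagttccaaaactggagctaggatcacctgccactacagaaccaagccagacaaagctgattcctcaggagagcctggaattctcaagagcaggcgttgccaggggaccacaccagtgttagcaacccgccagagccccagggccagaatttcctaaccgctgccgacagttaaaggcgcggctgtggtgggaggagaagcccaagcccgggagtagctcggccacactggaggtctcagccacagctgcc
Xcl1: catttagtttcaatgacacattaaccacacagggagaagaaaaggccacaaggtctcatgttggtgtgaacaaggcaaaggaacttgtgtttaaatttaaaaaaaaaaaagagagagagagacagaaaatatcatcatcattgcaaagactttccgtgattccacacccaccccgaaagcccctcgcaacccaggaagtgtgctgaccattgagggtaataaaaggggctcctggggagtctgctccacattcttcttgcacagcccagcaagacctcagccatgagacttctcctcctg

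Ifit1 held 2 matches, which began 104 and 85 bases before the start, and Ifit3 held 2, at 156 and 122 bases. Rsad2 held 1 at 120 bases, and Isg15 held 3 overlapping matches at 78, 72 and 66 bases. Cmpk2 and Xcl1 held none. No promoter of Usp18 was in the table used. The motif stood in 3.99% of the promoters of all 27025 genes with an entry. It stood in 31 of the 71 promoters (43.7%) of genes that were at least 2 times higher in interferon-induced cells in both libraries, as defined below, and in 4.54% of the 1696 promoters of genes measured but not called higher. The 5 genes called lower held no match. The gamma-activated motif TTCNNNGAA, searched in the same way, stood in 9.55% of all promoters, in 14.1% of those of the higher genes and in 8.43% of those of genes not called higher. A match says that the letters are in the window and is no evidence of binding, and the higher genes were found in cells chosen by genes of the same program.

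Interferon-induced cells held 342213 UMIs in the MWA library and 517466 in the MWA plus TIGIT library, with medians of 3615.5 (1867 to 9915) and 4339 (1824 to 13610) UMIs per cell. The other CD8+ T cells had medians of 4032 and 3748 UMIs, so depth differed in opposite directions in the libraries. The libraries held 66152465 and 78751205 UMIs and shared 37 barcodes, none of them of an interferon-induced cell. Whether either library was unusual could not be judged without further libraries. A level in CPM (counts per 1000000) is a gene's share of all UMIs summed over cells of one kind in one library. With 1 library per group, cells are not replicates. So no test between groups was possible, and the intervals, all at 95%, cover counting error only.

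Interferon-induced cells made up 5.83% (exact binomial interval 4.66 to 7.18) of non-cycling CD8+ T cells in the MWA library and 6.82% (5.62 to 8.19) in the MWA plus TIGIT library. The difference was 0.99 points, with an interval from −0.82 to 2.79 that includes 0. Among all CD3+ T cells the shares were 1.84% and 2.57%, a difference of 0.74 points (0.10 to 1.39), and the pool of non-cycling CD8+ T cells was itself larger in the MWA plus TIGIT library, with 1554 cells against 1407. The direction within CD8+ T cells depended on depth. It was −0.51 points among cells of at most 5000 UMIs and 0.08 points after every cell was thinned to 1000 UMIs, where at least 1 UMI of the 4 genes was found in 9.26% and 9.34% of cells.

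The sum that chose the cells had a long tail. Cells with 0 UMIs of the 4 genes numbered 1139 and 1208, those with 1 numbered 145 and 185, and those with 2, just outside the limit, 41 and 55. Just inside, 25 and 27 cells had a sum of exactly 3. The median interferon-induced cell had a sum of 5 in both libraries, and the highest had 17 and 23.

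**Figure D1:**
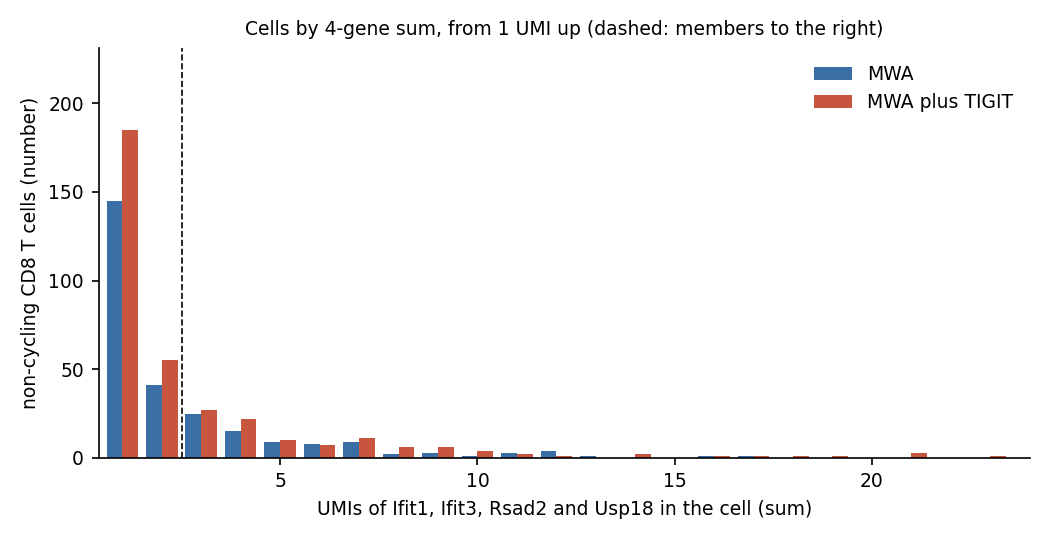
Number of non-cycling CD8+ T cells (y axis) by the summed UMIs of Ifit1, Ifit3, Rsad2 and Usp18 in the cell (x axis), from 1 UMI up, in the MWA (blue) and MWA plus TIGIT (red) libraries, with the limit dashed. Counts declined from 145 and 185 cells at 1 UMI to 25 and 27 at 3, with no gap at the limit.

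The 4 genes were not found together in most of the cells. Ifit3 had a UMI in 72 of 82 and 96 of 106 interferon-induced cells, Ifit1 in 63 and 79, Rsad2 in 43 and 52, and Usp18 in 43 and 46. All 4 were seen in 15 and 21 cells, and 5 and 10 cells passed on 1 gene alone. Ifit1 reached 403 CPM in MWA and 379 CPM in MWA plus TIGIT, against 9.40 and 13.8 CPM in other CD8+ T cells, and Ifit3 reached 546 and 593 CPM against 13.0 and 16.3 CPM. Rsad2 was at 205 and 215 CPM and Usp18 at 222 and 162 CPM. These values follow from the choice of cells and are a description. Ifit1 (chr19:34640871-34650009), Ifit2, Ifit1bl1, Ifit3b and Ifit3 lie side by side on mouse chromosome 19 of GRCm38. The longest transcripts of Ifit3 and Ifit3b are 98.0% identical over their aligned length. Their last 500 bases, each cut from its own end, gave 54.9%. The transcripts differ in length (1745 and 2000 bases), so these windows may not correspond. The 54.9% therefore cannot say whether 3′ reads tell Ifit3 and Ifit3b apart. How many reads were split between them was not tested.

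Cd8b1, the chain that marks conventional CD8+ T cells, was at 903 and 1078 CPM in interferon-induced cells, against 808 and 976 CPM in the others, and Cd3e at 488 and 719 CPM. Both genes were part of the choice of cells, so these levels are no check of the label, for which the genes of other cell types were read. B cell genes summed to 37.99 and 69.6 CPM, against 51.6 and 64.4 CPM in the others, and had a UMI in 9 of 82 and 29 of 106 interferon-induced cells (10.98% and 27.4%, against 16.7% and 18.6%). The heavy chain gene Ighm gave 9 and 31 of these UMIs, while Cd79a and Ms4a1 had 0. NK cell genes summed to 55.5 and 46.4 CPM, against 85.3 and 72.4 CPM, with 18 and 22 UMIs of the receptor gene Klre1 and 0 of Ncr1. In addition, the 7 dendritic cell genes had 0 UMIs in MWA. In MWA plus TIGIT the dendritic cell genes summed to 40.6 CPM, of which 1 cell held most, as described below. Neutrophil genes summed to 26.3 and 7.73 CPM, against 24.3 and 85.9 CPM in the others. The 13 macrophage and monocyte genes were seen in nearly every T cell. They summed to 2127 and 1619 CPM in interferon-induced cells and to 1411 and 1673 CPM in the others, so they were higher in the interferon-induced cells of MWA but not of MWA plus TIGIT. Lyz2, a lysozyme of macrophages, had a UMI in 68 of 82 and 76 of 106 interferon-induced cells and in 76.2% and 73.1% of the others. Myeloid UMIs exceeded 1% of the total in 2 and 1 interferon-induced cells, and 5 and 6 cells were called doublets, or 6.1% and 5.66% against 3.47% and 3.11% of the others. The part of this RNA in the results below was not tested beyond the values given.

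The antiviral program extended far beyond the 4 genes. The median interferon-induced cell had UMIs of 28 (13 to 43) and 30 (10 to 49) of 68 further listed interferon-stimulated genes, against 11 and 12 in the other CD8+ T cells, whose highest cells reached 32 and 37. These genes took 1.84% and 1.73% of the UMIs of the median interferon-induced cell and 0.475% and 0.594% of those of the median other cell. Of the 68 genes, 66 had a UMI in interferon-induced cells, and 62 had at least 20 UMIs over both kinds of cell in each library. Of these 62 genes, 60 were higher in interferon-induced cells in both libraries. Interferon-stimulated genes chose the cells, so these values are a description and were given no test.

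A gene was called where its CPM differed at least 2 times in the same direction in both libraries, among the 2203 genes with at least 20 UMIs in each library and 50 CPM in a kind of cell. This gave 84 higher genes (3.81%) and 5 lower genes (0.227%), and the median log2 ratio of all genes was −0.03 in MWA and −0.01 in MWA plus TIGIT. Of the 51 listed interferon-stimulated genes that passed the filter, 40 were higher and 0 lower, with medians of 2.25 and 2.07. All 10 filtered GTPases of the interferon-γ program were also higher, with medians of 1.81 and 1.95. The filter asked for 50 CPM in either kind of cell. Some listed genes, such as Iigp1 with 9.57 and 6.92 CPM in the others, therefore passed only through the interferon-induced cells. Genes that low in the others could pass only if they were at least 2 times higher, so these counts and medians are partly fixed by the filter. Of the 84 genes, 55 were on a list of interferon genes or antigen presentation and 29 were on none.

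**Figure D2:**
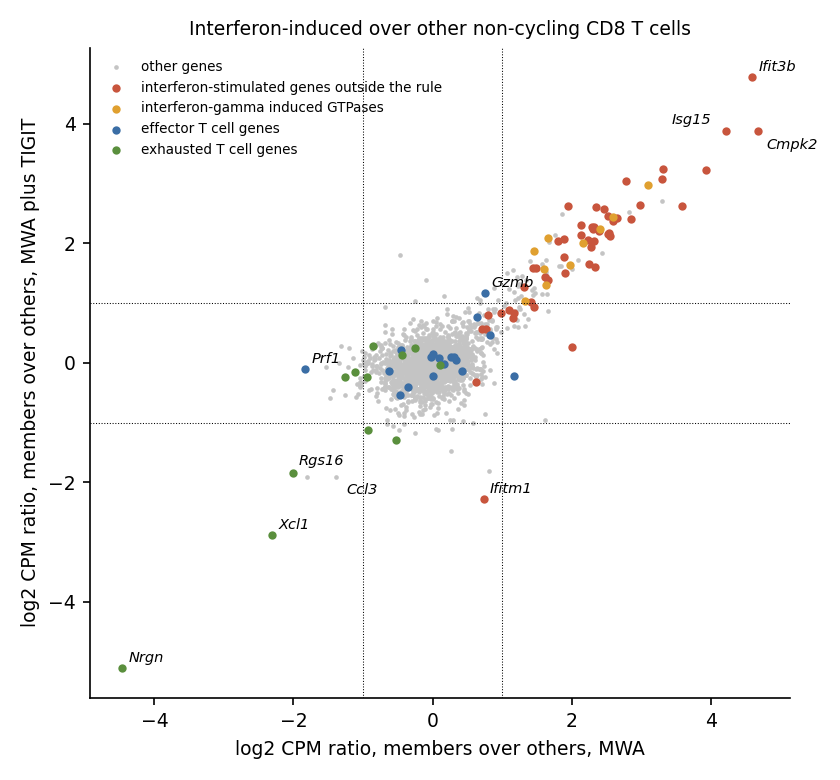
Log2 CPM ratio of interferon-induced over other non-cycling CD8+ T cells in the MWA library (x axis) and in the MWA plus TIGIT library (y axis), 1 point per gene, with ratios of 2 dotted. Interferon-stimulated genes lie at the upper right, with Isg15 at 4.22 and 3.88, and Nrgn, Xcl1 and Rgs16 of the exhausted list lie at the lower left.

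Among genes that make modifiers and sensors, Isg15, which encodes a ubiquitin-like protein attached to other proteins, was at 1049 CPM in MWA and 933 CPM in MWA plus TIGIT, against 56.2 and 63.2 CPM in the others. The log2 ratios were 4.22 (4.0 to 4.44) and 3.88 (3.69 to 4.08), and the UMIs of a single cell ranged from 0 to 31 and from 0 to 21. Isg15 was found in 62.2% and 51.9% of interferon-induced cells thinned to 1000 UMIs and in 4.96% and 5.36% of the others. Ifih1, the RNA sensor MDA5, was at 111 and 69.6 CPM against 9.23 and 11.3 CPM, and Ddx58, the RNA sensor RIG-I, at 140 and 153 CPM against 28.2 and 32.3 CPM. Zbp1, a sensor of left-handed nucleic acids, was at 432 and 601 CPM against 98.8 and 121 CPM. All 4 genes had log2 intervals above 0 in both libraries.

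Direct antiviral effectors showed the largest ratios. Ifit3b was at 99.4 CPM in MWA and 141 CPM in MWA plus TIGIT, against 4.10 and 5.15 CPM, with log2 ratios of 4.60 and 4.78. Cmpk2, a mitochondrial nucleotide kinase that lies next to Rsad2 on chromosome 12 (chr12:26469204-26479837), was at 96.4 and 61.8 CPM against 3.76 and 4.18 CPM, with ratios of 4.68 and 3.89. Both rest on few transcripts, 34 and 73 UMIs for Ifit3b and 33 and 32 for Cmpk2. Ifit2 had ratios of 3.93 and 3.22 and Ifit1bl1 of 3.31 and 3.25. Slfn5, a member of the Schlafen family, had ratios of 3.29 and 3.08. Pml and Daxx, whose proteins meet in nuclear bodies, had ratios of 2.99 and 2.64 and of 2.47 and 2.58, and Parp9 and Phf11a had ratios from 2.45 to 2.82. Bst2, which encodes the virus tether tetherin, was at 839 and 833 CPM against 226 and 243 CPM, with smaller ratios of 1.89 and 1.78.

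The chemokine gene Cxcl10, whose product draws cells that carry CXCR3, was at 131 CPM in MWA and 122 CPM in MWA plus TIGIT, against 19.1 and 14.8 CPM. Its UMIs came from 21 and 15 interferon-induced cells, and the highest cells held 9 of 45 and 19 of 63 UMIs. The log2 ratios were 2.78 and 3.04. Thinned to 1000 UMIs, 13.4% and 8.49% of interferon-induced cells and 1.75% and 1.32% of the others had a Cxcl10 UMI. Among macrophages, taken as kept barcodes with at least 10 C1q UMIs and no Cd3 UMI (medians of 8595.5 and 10544 UMIs), which make this chemokine, the shares were 5.96% and 6.42%.

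The genes that carry the signal differed among themselves. Of 13 filtered receptor and signaling genes, 3 were called higher, against 3.81% of all genes. Among them were Stat2 and Irf9, whose products bind the response element together. Stat2 was at 64.3 and 63.8 CPM against 12 and 13.8 CPM, with ratios of 2.43 and 2.20, and Irf9 at 84.7 and 118 CPM against 36.4 and 43.6 CPM, with ratios of 1.22 and 1.43. The receptor genes did not reach a ratio of 2 in both libraries. Ifnar1 was at 93.5 and 56.0 CPM against 60.5 and 66.5 CPM, Ifnar2 at 76.0 and 73.4 CPM against 58.3 and 67.7 CPM, and Ifngr1 at 327 and 377 CPM against 312 and 337 CPM. Irf7, the factor that amplifies type I interferon, was at 324 and 286 CPM against 56.4 and 63.9 CPM, with ratios of 2.52 and 2.16. Socs1, a feedback inhibitor, had ratios of 1.07 and 0.58.

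The GTPases that attack membranes around intracellular microbes were higher with both kinds of family. Gbp2 was at 129 and 166 CPM against 21.2 and 30.6 CPM, with ratios of 2.60 and 2.44, and Iigp1 at 81.8 and 54.1 CPM against 9.57 and 6.92 CPM, with ratios of 3.1 and 2.97. Gbp7, Gbp9, Gbp4, Gbp6, Gbp8, Irgm1, Igtp and Tgtp2 had ratios from 1.03 to 2.41. Near-identical copies among the Gbp, Tgtp, Ifi200, Oas and Phf11 genes make the values of single members uncertain.

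MHC class I genes differed less. Of 17 filtered genes, 2 were called higher, against 3.81% of all genes, with medians of 0.49 and 0.61. Tapbp, the tapasin that loads peptides, had ratios of 1.19 and 1.05, and the nonclassical gene H2-T22 of 1.23 and 1.08. B2m, the common light chain, was at 3626 and 4120 CPM against 3079 and 3288 CPM, with ratios of 0.24 and 0.33, and H2-K1 had 0.28 and 0.26.

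Genes higher in both libraries and on no list included Ifi214, Mndal and Ifi47, with ratios of 3.30 and 2.71, of 1.47 and 1.25, and of 1.40 and 1.70. Cd274, which encodes PD-L1, the ligand of PD-1, was at 64.3 and 67.6 CPM against 26.3 and 24.6 CPM, in 16 and 25 cells. Cd86, a ligand of CD28 better known from antigen-presenting cells, was at 76.0 and 71.5 CPM against 19.0 and 24.1 CPM, in 14 and 22 cells. Casp1, Rnf213, Usp25, Nampt, Keap1, Smchd1 and Trafd1 had ratios from 1.12 to 2.14. Cd274, Cd86 and these genes were picked from the higher genes after their values were seen.

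Levels of Isg15 and Zbp1 were higher in cells with a higher sum of the 4 genes, which belong to the same program and chose the cells. Only a few chosen genes were read in this way. Isg15 went from 36.7 and 39.2 CPM in cells with a sum of 0 to 376 and 304 CPM at 2, just outside the limit, 411 and 559 CPM at 3, and 1928 and 1661 CPM at 10 or more. Zbp1 went from 89.5 and 105 CPM at 0 to 452 and 785 CPM at 10 or more. From the group of 6 to 9 to that of 10 or more, Bst2 went from 731 to 1214 CPM in MWA and from 1023 to 796 CPM in MWA plus TIGIT. Gbp2 went from 114 to 309 CPM and from 238 to 162 CPM. The intervals of these groups overlapped in each case. So the cells just outside the limit already had more Isg15 than those at 0, and the limit cut a gradient. The groups of 10 or more held 11 and 17 cells.

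**Figure D3:**
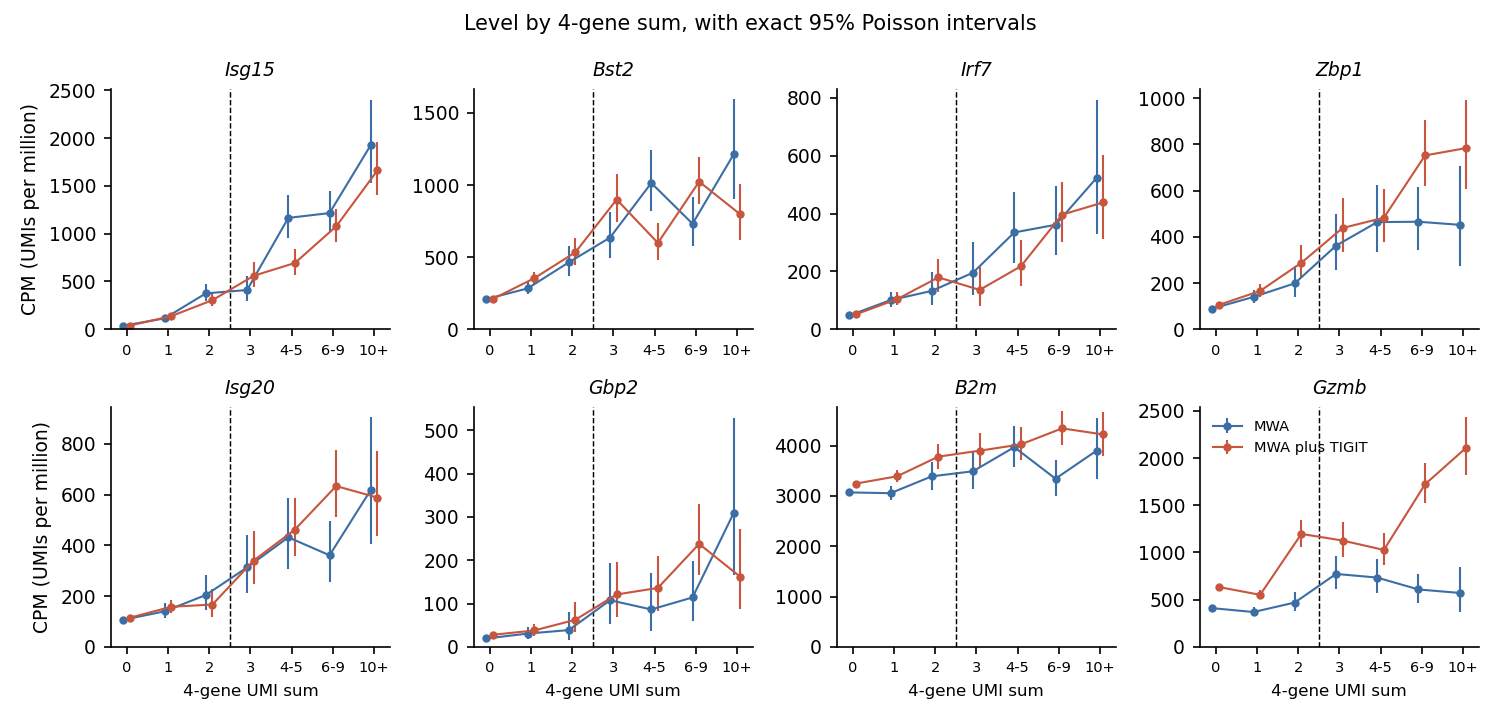
CPM of 8 genes (y axes) in cells grouped by their 4-gene UMI sum (x axes), in MWA (blue) and MWA plus TIGIT (red), with exact Poisson intervals and the limit dashed. Isg15 climbed to 1928 and 1661 CPM in the highest group, while B2m stayed between 3055 and 4344 CPM, and Gzmb climbed to 2111 CPM in MWA plus TIGIT and stood at 571 CPM in MWA.

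The 5 lower genes were Nrgn, Xcl1, Rgs16, Kcnq1ot1 and Ccl3. Of these, Nrgn, Xcl1 and Rgs16 were on the list of exhausted T cell genes, which was chosen with earlier results of these data known. Nrgn had 1 UMI in interferon-induced cells of each library, or 2.92 and 1.93 CPM, against 377 and 415 UMIs, or 64.4 and 66.8 CPM, in the others. The log2 ratios of Nrgn, the gene of neurogranin, were −4.46 (−9.77 to −1.98) and −5.11 (−10.4 to −2.62). Xcl1, a chemokine that attracts cross-presenting dendritic cells, was at 111 and 75.4 CPM against 550 and 558 CPM, with log2 ratios of −2.31 (−2.81 to −1.85) and −2.89 (−3.38 to −2.44). It was found in 24.4% and 17.0% of interferon-induced cells and in 29.96% and 21.96% of the others, with at most 6 UMIs in a cell against as many as 166 and 289. None of the interferon-induced cells had the very high counts of some other cells.

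Rgs16, a regulator of G protein signaling, had 9 and 11 UMIs, with ratios of −2.01 and −1.84, and the chemokine gene Ccl3 had 9 and 18 UMIs, with ratios of −1.39 and −1.91. Ccl1 had 0 UMIs in interferon-induced cells, which allows up to 8.77 and 5.80 CPM (3 counts in each library), against 45.8 and 123 CPM in the others. Of 12 filtered exhausted genes 3 were lower, against 0.227% of all genes, and 0 higher, against 3.81%, with medians of −0.93 and −0.24. Pdcd1, the gene of PD-1, was at 37.99 and 56.0 CPM against 72.8 and 66.1 CPM. When both kinds of cell were limited to those with a Gzma, Gzmb or Gzmk UMI, 3 genes were lower, and the ratios of Nrgn were −0.75 and −1.80 and those of Xcl1 −1.45 and −1.73. Among cells of at most 5000 UMIs the ratios of Xcl1 were −1.34 and −1.11 and those of Nrgn −2.63 and −0.50. The ratios of both genes were thus smaller in size under either limit, and the reason was not tested. In these subsets the ratios of Nrgn rest on at most 1 UMI of interferon-induced cells per library, a count of 0 being read as 3. Nr4a2, Satb1, Uhrf2, Lrrc8c and P4hb were next among the lowest genes, with ratios from −1.12 to −0.63, and none was called.

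Of 7 filtered stem-like and naive-like genes none was called, against 3.81% higher and 0.227% lower of all genes, with medians of −0.38 and −0.56. Il7r, the receptor of interleukin-7, was at 70.1 and 88.9 CPM against 123 and 131 CPM, and Tcf7, the factor of stem-like T cells, at 55.5 and 67.6 CPM against 72.3 and 76.1 CPM. Of 14 filtered activation genes, 1 (Ccl3) was lower, against 0.227% of all genes, and 0 higher, against 3.81%. Cd69, which keeps activated T cells in tissue, was at 441 and 336 CPM against 234 and 228 CPM, with ratios of 0.91 and 0.56. It was found in 36.6% and 33.0% of thinned interferon-induced cells and in 21.5% and 19.5% of the others. Tigit itself had 1 and 5 UMIs in interferon-induced cells, too few to compare, and its activating partner Cd226 was at 175 and 180 CPM against 149 and 192 CPM.

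Of 18 filtered effector genes none was called in both libraries, against 3.81% higher and 0.227% lower of all genes, with medians of 0.13 and 0.07. Gzmb, the granzyme that triggers death of target cells, was at 687 CPM in MWA and 1438 CPM in MWA plus TIGIT, against 407 and 644 CPM in the others, with ratios of 0.76 and 1.16. Ly6c2, a surface protein of effector and memory CD8+ T cells, was at 1525 and 2692 CPM against 977 and 1587 CPM. The median interferon-induced cell had 1 and 4 Gzmb UMIs and 5 and 12 Ly6c2 UMIs, against 0 and 1 and against 3 and 5 in the others.

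The design asks what TIGIT blockade adds to ablation, and it can be described in the interferon-induced cells by the log2 ratio of MWA plus TIGIT over MWA. Of 2497 genes with at least 20 UMIs and 50 CPM in a library, 108 (4.33%) were at least 2 times higher and 42 (1.68%) at least 2 times lower. The median ratio was 0.13 in both the interferon-induced and the other cells. With TMM factors, which lowered every ratio by 0.07, 76 genes were higher and 61 lower, so the balance of higher and lower genes rests on the scaling. Of the 2497 genes, 62.6% had ratios above 0 in interferon-induced cells and 75.5% in the others.

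Most genes of the interferon program were within a ratio of 2 between the libraries, as were most of all genes. Of 55 filtered interferon-stimulated genes, 1 was higher (Trim30d, 1.15), against 4.33% of all genes. Lower were 3 (Ifitm1, Ifitm2 and Ifitm3), against 1.68%, and the median was 0.06. Ratios were above 0 in 33 of the 55, against 62.6% of all genes. In the other CD8+ T cells the median over the same genes was 0.28. Isg15 had a ratio of −0.17 (−0.37 to 0.03) and Bst2 of −0.01 (−0.23 to 0.21). None of 12 filtered GTPases was called, against 4.33% higher and 1.68% lower of all genes, with a median of 0.21. Of 17 antigen presentation genes 1 was called higher (Tap2, 1.10), against 4.33% of all genes, and 15 ratios were above 0, against 62.6%. The 3 Ifitm genes, which encode membrane proteins that hinder virus entry, came from few cells. Ifitm1 had 100 UMIs in 10 cells of MWA, of which 3 cells held 74, and 31 UMIs in 4 cells of MWA plus TIGIT, of which 3 held 30. Ifitm3 had 137 UMIs in 31 cells and 90 UMIs in 21 cells.

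**Figure D4:**
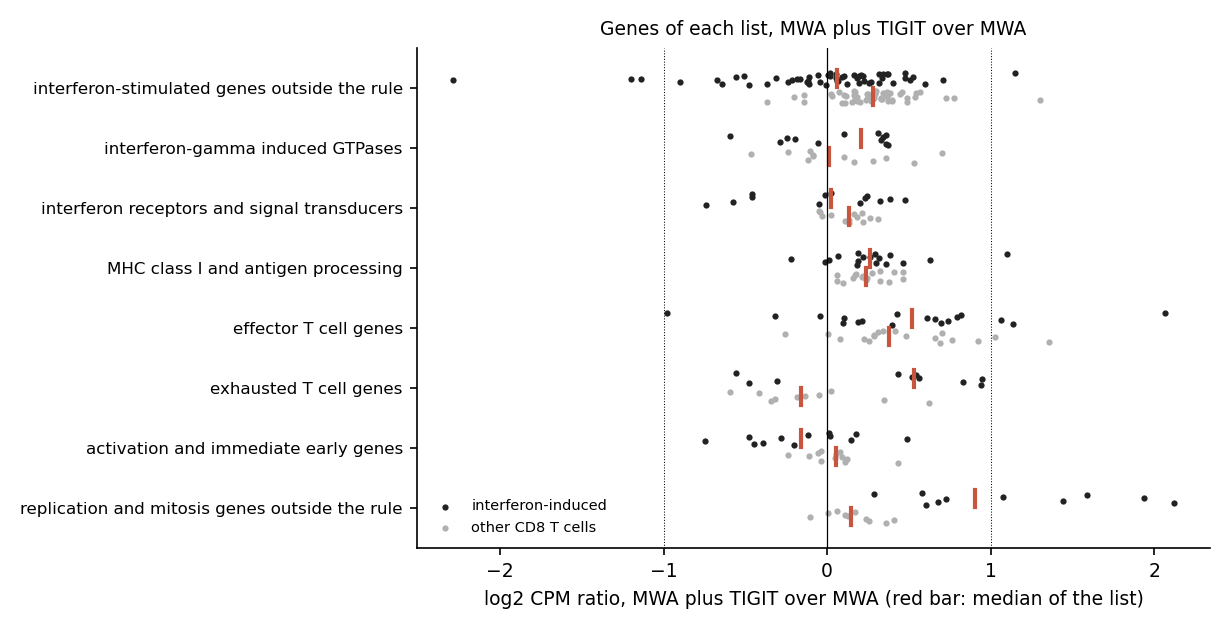
Log2 CPM ratio of MWA plus TIGIT over MWA (x axis) for the filtered genes of each list (rows), in interferon-induced cells (black) and other CD8+ T cells (grey), with the median of a list in red. The medians of interferon-stimulated genes were 0.06 and 0.28, and those of the replication list 0.90 and 0.15.

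Of 18 filtered effector genes, 3 were called higher, against 4.33% of all genes, and 0 lower, against 1.68%. Prf1, at 17.5 CPM in MWA and 73.4 CPM in MWA plus TIGIT, passed the filter only through the latter. It could pass only with a call of higher. Ratios were above 0 in 15 of the 18, against 62.6% of all genes, with a median of 0.52 against 0.38 in the other cells. Gzmb had a ratio of 1.07 (0.85 to 1.28) in interferon-induced cells and 0.66 (0.59 to 0.74) in the others. The share of thinned interferon-induced cells with a Gzmb UMI was 35.4% in MWA and 54.7% in MWA plus TIGIT, against 25.9% and 34.8% of the others and 0.185% and 0.166% of C1q macrophages, which should lack it. Without its highest cell in each library, the ratio of Gzmb was 1.06. The difference between the ratios of both kinds of cell was not tested.

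Prf1, which encodes the pore protein perforin, was at 17.5 CPM in MWA and 73.4 CPM in MWA plus TIGIT, from 6 UMIs in 6 cells and 38 UMIs in 28 cells, with a ratio of 2.07 (0.81 to 3.6). In the other cells it was at 62.2 and 78.8 CPM, so the interferon-induced cells of MWA had the lowest level. Ccr2, a chemokine receptor, had a ratio of 1.14 (0.51 to 1.80), against 1.36 in the others. Gzma was at 555 and 928 CPM against 759 and 800 CPM, Gzmk at 143 and 226 CPM against 80.7 and 164 CPM, and Ly6c2 had a ratio of 0.82. Ifng, which encodes interferon-γ, was at 225 and 242 CPM against 201 and 246 CPM, with a ratio of 0.10 (−0.32 to 0.53).

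Of the 10 filtered replication genes all had ratios above 0, against 62.6% of all genes, and 5 were called higher, against 4.33%. The median was 0.90 in interferon-induced cells and 0.15 in the others. The filter asked for 50 CPM in either library, so Mcm3 (20.5 and 88.9 CPM) and Mcm7 (14.6 and 56.0 CPM) passed only through MWA plus TIGIT. Genes that low in MWA could pass only with a call of higher, so these counts and the median are partly fixed by the filter. The rule removed cells with at least 2 UMIs of Mki67, Top2a and Birc5 in both libraries, so this list holds genes outside it. Cells with 1 such UMI stayed. Top2a had a UMI in 7 and 12 interferon-induced cells, Mki67 in 1 and 4, and Birc5 in 2 and 2. Mcm3 had a ratio of 2.12 (0.96 to 3.51), Mcm7 of 1.94 (0.55 to 3.67) and Mcm5 of 1.44 (0.37 to 2.68). These genes encode parts of the MCM helicase, which opens DNA at replication origins. Stmn1, a microtubule regulator, had 1.59, and Pcna, the clamp of DNA polymerase, 1.08 (0.35 to 1.86). The mitosis genes Cdk1 and Ccnb1 had at most 4 UMIs in a library, and Cenpf, Tpx2, Cdc20 and Rrm2 had 0.

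Summed over Mcm2 to Mcm7, interferon-induced cells had 61 UMIs (178 CPM) in MWA and 219 UMIs (423 CPM) in MWA plus TIGIT, a ratio of 1.25 (0.83 to 1.68). The other cells had 242 and 274 CPM, a ratio of 0.18 (0.07 to 0.28). Interferon-induced cells over the others gave −0.44 (−0.84 to −0.07) in MWA and 0.63 (0.42 to 0.83) in MWA plus TIGIT. The UMIs came from 34 of 82 and 59 of 106 cells, with at most 8 and 11 in a cell. After thinning to 1000 UMIs, 14.6% (7.80 to 24.2) and 27.4% (19.1 to 36.9) of interferon-induced cells had an Mcm UMI, a difference of 12.7 points (0.14 to 24.4), against −0.76 points in the others. Among cells of at most 5000 UMIs the ratio between libraries was 0.80 (0.12 to 1.51), and interferon-induced over other cells gave −0.49 (−1.10 to 0.05) in MWA and 0.20 (−0.22 to 0.60) in MWA plus TIGIT, both with intervals that include 0.

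**Figure D5:**
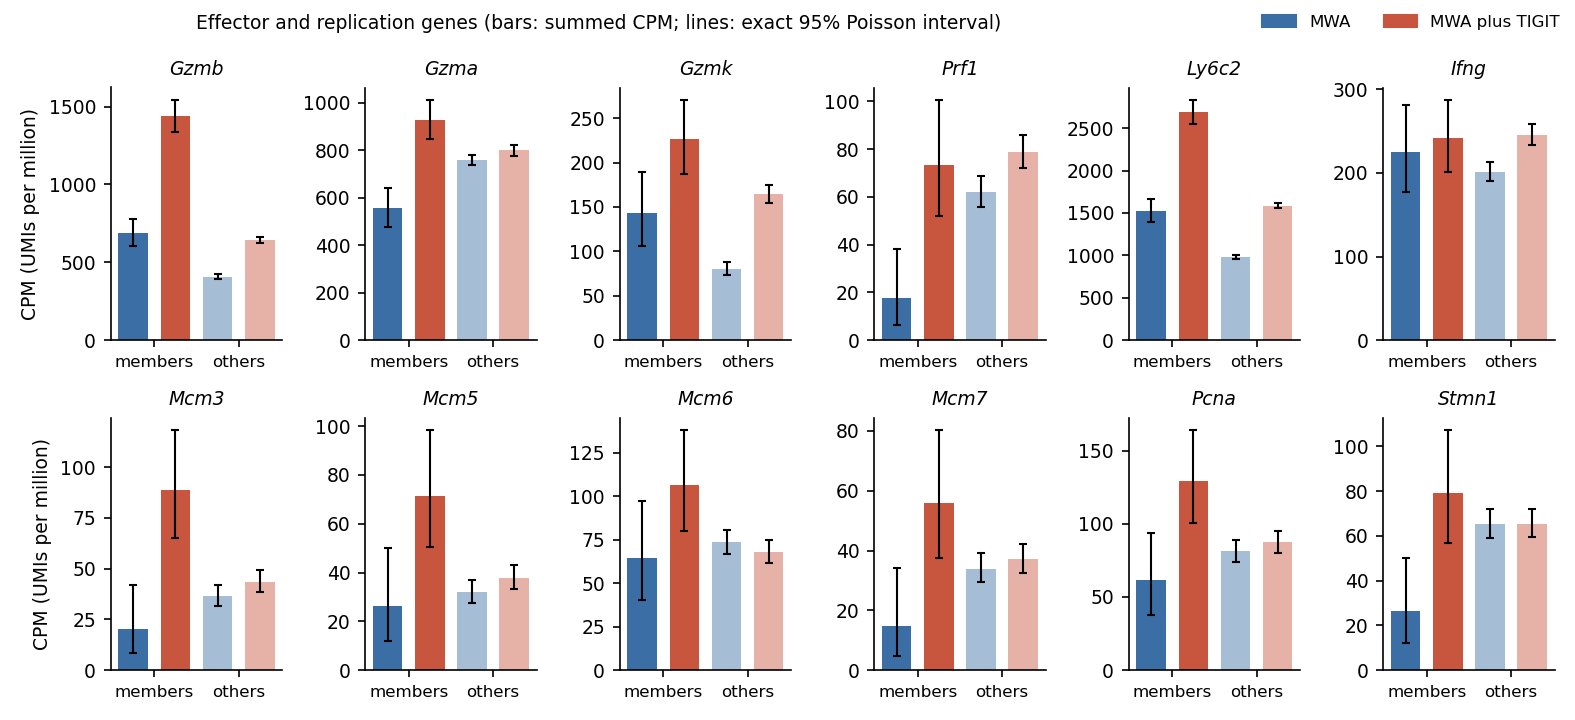
CPM (y axes, from 0) of 6 effector and 6 replication genes in interferon-induced cells (members, dark) and other CD8+ T cells (others, light) of MWA (blue) and MWA plus TIGIT (red), with exact Poisson intervals. Gzmb was at 687 and 1438 CPM in interferon-induced cells, and Mcm3 at 20.5 and 88.9 CPM, against 36.6 and 43.6 CPM in the others.

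None of 10 filtered exhausted genes was called in this comparison, against 4.33% higher and 1.68% lower of all genes. At those shares so short a list would rarely hold a call. Ratios were above 0 in 7 of the 10, against 62.6% of all genes. The median was 0.53, against −0.16 in the other cells. Lag3, an inhibitory receptor, was at 35.1 CPM in MWA and 67.6 CPM in MWA plus TIGIT, with a ratio of 0.95 (−0.03 to 2.03), and Cxcr6 had 0.83 (0.39 to 1.29). Pdcd1 had a ratio of 0.56 (−0.43 to 1.63). Of 12 activation genes none was called, against the same shares of all genes, with a median of −0.16.

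Of the other genes with high or low ratios, some owed them to single cells and others had UMIs in several or many cells. Igkc, an immunoglobulin chain that B lineage cells secrete, had 1 and 29 UMIs, with a ratio of 4.26 (1.67 to 9.61), and was also higher in the other T cells (2.76). Wdr95, Ddx52, Wtap and Slc25a11 had ratios from 1.61 to 2.26, with at most 4 UMIs in a cell. Prss2, a trypsinogen, had 0 and 31 UMIs, the latter in 8 cells, and was also higher in the other T cells (3.28). In MWA plus TIGIT, 1 cell with 13610 UMIs, 9 of Cd3 genes and 8 of Cd8 genes, held 26 of 26 UMIs of Ccl17, 94 of 123 of H2-Eb1 and 13 of 14 of Fscn1, which are genes of mature dendritic cells. Another, with 7770 UMIs, held 52 of 59 UMIs of Ccl2. In MWA, 1 cell held 15 of 28 UMIs of Cxcl2. Fam241a (−2.24), Rnf126 (−2.11), Gnl3 (−1.92) and Gstp1 (−1.69) were lower from UMIs in at least 18 cells of MWA. Mt1, a metallothionein, had −1.69, and Rgcc −1.73.

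Receptor segments differed most in Trav16, a variable segment of the T cell receptor α chain. A Trav16 UMI was found in 1 of 82 interferon-induced cells of MWA (1.22%) and in 38 of 106 of MWA plus TIGIT (35.8%, 26.8 to 45.7), against 1.58% and 22.03% of the other cells. In MWA plus TIGIT, 10.6% (7.64 to 14.3) of Trav16 cells and 5.68% (4.44 to 7.15) of cells without Trav16 were interferon-induced. After thinning, the shares with a Trav16 UMI in MWA plus TIGIT were 10.4% and 9.40%. Any Trav segment was seen in 14 and 54 interferon-induced cells, and Trav16n and Trav16d-dv11 are near copies, so segments are uncertain. Without Trav16 cells, the share of interferon-induced cells was 5.85% in MWA and 5.68% in MWA plus TIGIT, a difference of −0.17 points.

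Gzmb, Prf1 and the Mcm genes differed less between the libraries without these cells. Without Trav16 cells the ratio of MWA plus TIGIT over MWA in interferon-induced cells was 0.77 (0.53 to 1.02) for Gzmb, 1.27 (−0.20 to 2.93) for Prf1 and 1.11 (0.64 to 1.58) for summed Mcm2 to Mcm7. In the others it was 0.45 for Gzmb. Within Trav16 cells of MWA plus TIGIT, Gzmb was at 2022 CPM in interferon-induced cells and 989 CPM in the others, with a log2 ratio of 1.03 (0.86 to 1.20). The part of the Trav16 cells in the results was not tested further.

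No transcript of the 18 type I interferon genes in the files was seen in interferon-induced cells, which allows up to 8.77 and 5.80 CPM. In all kept barcodes of the libraries, type I interferon genes had 47 and 58 UMIs, of which Ifnb1, interferon-β, had 40 in 14 cells and 46 in 22 cells. Ifng had 77 and 125 UMIs in interferon-induced cells.

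Transcripts of the 4 genes were also found outside non-cycling CD8+ T cells. At least 1 UMI of the 4 genes after thinning was found in 9.26% and 9.34% of non-cycling CD8+ T cells, 6.12% and 7.04% of cycling CD8+ T cells, 6.61% and 6.68% of Cd4 T cells without Foxp3, 4.10% and 7.69% of Foxp3 T cells and 5.65% and 6.83% of these macrophages, without the cycling ones. The intervals of non-cycling and cycling CD8+ T cells overlapped in both libraries.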

How the data were processed

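The authors deposited UMI counts per gene and barcode for each library, made with 10x Genomics 3′ v3.1 chemistry and Cell Ranger (4.0.0 in the file headers, 6.1.1 in the submitters' processing notes) on mm10. The deposited counts cover 32285 genes. No per-cell annotation was used here, so cells were chosen by the UMI limits given in the report, and the members, lists and limits were chosen with earlier results of these data known. Barcodes with under 200 genes or over 10% mitochondrial UMIs were left out, leaving 10037 and 9913.

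UMIs were summed per library and kind of cell, without tests, since each group had 1 library. Intervals of 95% were exact binomial for shares, exact Poisson for CPM and conditional binomial for ratios. A count of 0 was read as up to 3 counts. Genes were called at a ratio of 2, with at least 20 UMIs and 50 CPM. Genes named are the 15 highest and 10 lowest over both libraries, the 12 highest and 12 lowest between libraries, and genes of the lists, leaving out the genes of the rule, mitochondrial, predicted and T cell receptor genes. Others were named after their values were seen, and some genes that the rule names are not reported here.

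Doublets were called in each library from simulated pairs (20 principal components, 0.8% per 1000 barcodes), which marked 8.03% and 7.93% of barcodes. They were kept, and left out as an alternative. The ratios were tested on simulated data. Promoters came from RefSeq (GRCm38.p6) and gene positions from GENCODE vM21. Python 3.11.15, numpy 2.4.6, scipy 1.17.1, pandas 2.3.3, scikit-learn 1.9.0, matplotlib 3.10.9, R 4.3.3 and edgeR 4.0.16 (TMM factors only) were used. Alternatives changed the limits, the filter, the scaling and the cells compared.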

Additional observations from a re-analysis of the deposited data

Results flagged for a closer look

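In 5 of the genes reported here the log2 ratio of MWA plus TIGIT over MWA had opposite signs in interferon-induced cells and in other CD8+ T cells, with a ratio of at least 2 in the former. The differences between the kinds of cell were not tested. H2-Eb1, an MHC class II chain, had 1.76 in interferon-induced cells and −0.52 in the others, and the chemokine gene Ccl17 had 2.52 (against 3 counts in MWA) and −2.73. In both genes 1 cell of MWA plus TIGIT held most UMIs. Ifitm1 had −2.29 and 0.73, Cebpb −2.24 and 0.34, and Fcgr3, a receptor of antibodies on myeloid cells, −1.96 and 0.46. In MWA, 3 cells held 74% of the Ifitm1, 51.5% of the Cebpb and 88.9% of the Fcgr3 UMIs.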

How the results depend on the processing

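No paired analysis was possible because each group had 1 library, and no library could be left out. The share of interferon-induced cells was 2.99% and 3.67% with a sum of at least 5, 2.86% and 4.17% among cells with no C1q, Lyz2 or Apoe UMI, and 7.20% and 8.16% among cells with a granzyme UMI. After thinning, 9.26% and 9.34% of cells had at least 1 UMI of the 4 genes, which is a looser limit and another measure. Without a filter 255 genes were higher and 91 lower in interferon-induced cells, and 916 higher and 572 lower in MWA plus TIGIT. Between libraries 211 were higher with a sum of at least 5, and 72 were lower among cells of at most 5000 UMIs and 70 among cells with a granzyme UMI, where 3 were lower in interferon-induced cells. H2-Eb1 between libraries turned to −0.48 without doublets, −0.84 at most 5000 UMIs and −0.22 without Trav16. Without its highest cell, of 13610 UMIs, H2-Eb1 in MWA plus TIGIT was at 57.6 CPM, against 70.1 CPM in all interferon-induced cells of MWA. Uhrf2 in MWA turned to 0.026 at most 5000 UMIs. Why these values turned was not tested further. Of 610 values of single genes under the alternatives, 568 stayed within their interval, 38 moved and 4 reversed. Gene counts among cells with no C1q, Lyz2 or Apoe UMI were not run, since 1 and 2 cells remained. The limits on myeloid UMIs and granzymes were chosen after seeing the data.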
